A study of Mus musculus with 12 samples.

Results

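The 6 annotated Zscan4 genes (Zscan4a to Zscan4f) and 2 Tcstv genes (Tcstv1 and Tcstv3) were followed by symbol through 12 RNA-seq libraries of mouse embryonic stem cells, 8 genes of the 55416 identifiers counted. They were chosen by their values in these same libraries, in which Zscan4c had stood out as higher in ribosome-bound than in whole-cell RNA and as lower on ribosomes labelled at the endoplasmic reticulum (ER) than on those labelled in the cytosol. Their values in those comparisons are therefore given as a description, without a p-value. Of the 8 genes, 7 passed the filter on low counts, and Tcstv1 did not. Tcstv3 passed it only through its ribosome-bound libraries.

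All libraries came from Rpl31-FTA E14Tg2a.4 mESCs, a derivative of the E14Tg2a.4 line whose ribosomal protein Rpl31 is fused to FLAG, a cleavage site for TEV protease and AviTag (FTA), grown with serum and mouse leukemia inhibitory factor. Cells of every group were transfected with plasmids for both fragments, N- and C-terminal, of ALIBi, a proximity biotinylation system, so no group was left untransfected, and the labels do not say whether the line is a clone. ALIBi was targeted to the cytosol or to the ER. RNA eluted from the purified biotinylated ribosomes (ribosome-bound) and RNA of the lysate before purification (whole-cell) give 4 groups of 3 biological replicates: cytosol ribosome-bound, cytosol whole-cell, ER ribosome-bound and ER whole-cell. None of these libraries is labelled with an siRNA. Between 21.1 and 26.9 M reads were counted in genes per library. Levels are in CPM, counts per M reads of the scaled library size, and a change is a log2 ratio, with an approximate standard error (SE).

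Zscan4 genes encode nuclear proteins with a SCAN domain and C2H2 zinc fingers. They are transcribed in a burst in the mouse embryo at the 2-cell stage, and in embryonic stem cell cultures in a small, changing fraction of cells that resemble that stage, where they are known for their part in telomere maintenance. Tcstv genes lie outside this family and are transcribed in the same 2-cell-like cells. The factor Dux, itself under control of Dppa2 and Dppa4, activates many genes of this state, and chromatin regulators such as Trim28, Kdm1a and Rif1 hold it down.

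The copies are so alike that a read often cannot tell them apart. In GENCODE M21 transcripts, pairwise identity over 15 pairs ran from 96.6% (Zscan4b and Zscan4d) to 99.7% (Zscan4b and Zscan4e), whereas Tcstv1 and Tcstv3 were 85.2% identical. To show what separates the copies, the 60-base stretch at coding bases 597 to 656 of Zscan4c is printed for all 6, 5′ to 3′, with capitals at the 9 positions that differ among them:
Zscan4a: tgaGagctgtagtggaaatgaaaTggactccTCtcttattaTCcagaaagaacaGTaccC
Zscan4b: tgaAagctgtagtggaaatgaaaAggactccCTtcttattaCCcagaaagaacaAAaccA
Zscan4c: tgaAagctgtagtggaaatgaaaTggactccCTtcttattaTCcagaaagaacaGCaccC
Zscan4d: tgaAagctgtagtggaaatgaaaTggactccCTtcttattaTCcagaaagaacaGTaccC
Zscan4e: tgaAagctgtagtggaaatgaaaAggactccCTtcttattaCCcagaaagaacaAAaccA
Zscan4f: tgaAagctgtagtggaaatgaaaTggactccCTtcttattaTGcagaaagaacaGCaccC
The stretch holds 5 distinct sequences, because Zscan4b and Zscan4e are the same there. Zscan4a is annotated as a pseudogene in that release, without a coding region. Of all 150-base windows of each transcript, the share found letter for letter in the transcript of another gene was 86.2% for Zscan4f, 77.4% for Zscan4e, 68.4% for Zscan4b, 61.0% for Zscan4c, 25.1% for Zscan4a and 13.0% for Zscan4d. It was 0 for both Tcstv genes. How the deposited counts treat reads that fit several copies, and with which strand setting, is not given in the sources used here. The split between copies is therefore uncertain and the 6 were also summed. A class total of alignments that are not unique held 4.92% to 6.17% of reads in ribosome-bound and 7.25% to 7.58% in whole-cell libraries. Any Zscan4 reads set aside there are missing from the sum too. Some windows were also shared with genes outside the sum, Gm45551 and Zscan4-ps1 to Zscan4-ps3.

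Transcripts of the Zscan4 members were 1745 to 2279 bases long with a GC content of 42.3% to 44.4%, against medians of 3072 bases and 50.2% over the 16183 tested genes with a transcript in the annotation. Tcstv3 was shorter still, at 779 bases and 48.7% GC.

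Promoter sequences are shown to compare the copies upstream of their starts. Of the 8 members, 4 had a promoter in the RefSeq table (GRCm38.p6): Zscan4b, Zscan4c, Zscan4d and Zscan4f. The 250 bases before the start are shown for Zscan4b (chr7:10905051-10905300, minus strand) and Zscan4c (chr7:11005495-11005744, plus strand), the pair with the lowest identity (94.7%), with capitals on TATAAA and TAATCA:
Zscan4b: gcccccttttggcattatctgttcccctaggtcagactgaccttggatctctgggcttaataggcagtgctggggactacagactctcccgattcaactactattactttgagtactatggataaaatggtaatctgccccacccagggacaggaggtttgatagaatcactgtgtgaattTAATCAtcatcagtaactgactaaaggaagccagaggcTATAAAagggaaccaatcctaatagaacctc
Zscan4c: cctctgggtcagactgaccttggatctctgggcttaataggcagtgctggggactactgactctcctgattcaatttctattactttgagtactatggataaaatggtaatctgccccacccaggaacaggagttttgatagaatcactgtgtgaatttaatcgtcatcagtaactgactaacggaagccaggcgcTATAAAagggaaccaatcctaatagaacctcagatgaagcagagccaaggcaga
Both strands were searched, and TATAAA was in 4 of 4 of these promoters and in 12.4% of the 32851 promoters of the table. TAATCA, a letter run of homeodomain sites that overlaps neither TATAAA nor another TAATCA here, was in 1 of 4 (Zscan4b) and in 7.21% of all. The most alike pair, Zscan4c and Zscan4f, was 99.6% identical over 227 aligned bases.

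Summed over the 6 copies, Zscan4 RNA was scarce in the cells and several times more frequent among ribosome-bound RNA. In whole-cell RNA the sum was 8.87, 11.7 and 10.7 CPM in the cytosol libraries (10.4 ± 1.44, SD, n = 3) and 10.8, 9.39 and 9.42 CPM in the ER libraries (9.87 ± 0.793, SD, n = 3). In ER ribosome-bound RNA it was 52.5, 50.6 and 52 CPM (51.7 ± 1, SD, n = 3). On cytosol-labelled ribosomes it was 77.2, 82.5 and 83.7 CPM (81.1 ± 3.48, SD, n = 3). The cytosol ribosome-bound libraries were thus highest and the ER ribosome-bound libraries next, with no overlap between these groups or with whole-cell RNA. The 2 whole-cell groups overlapped and did not differ beyond their spread. Behind these levels stand 191 to 275 reads per whole-cell library, 1142 to 1273 per ER ribosome-bound library and 2017 to 2339 per cytosol ribosome-bound library. In such bulk samples, fewer cells of a type and less RNA per cell cannot be told apart.

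**Figure D1:**
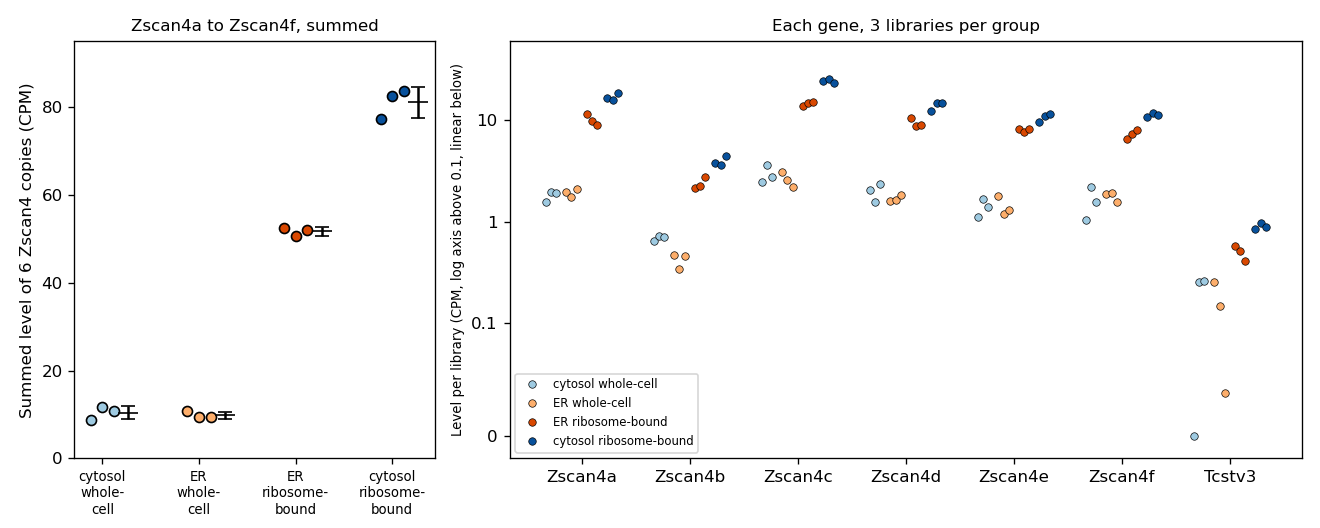
Level in CPM in each of 12 libraries. Left, the sum of Zscan4a to Zscan4f on a linear axis, with bars for the mean and SD of 3 replicates; right, each of 7 members on a log axis that is linear below 0.1. The summed level is near 10 CPM in both whole-cell groups, 50.6 to 52.5 CPM in ER ribosome-bound RNA and 77.2 to 83.7 CPM in cytosol ribosome-bound RNA.

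Among the copies, Zscan4c, the copy named most often as a marker of the state, was at 24.4, 25.6 and 23.3 CPM in cytosol ribosome-bound RNA and at 13.9, 14.9 and 15.2 CPM in ER ribosome-bound RNA. Its whole-cell levels were 2.45, 3.58 and 2.76 CPM in the cytosol libraries and 3.1, 2.56 and 2.2 CPM in the ER libraries. The ribosome-bound groups did not overlap, and the whole-cell groups did. Zscan4a, the annotated pseudogene, kept to the same order. It was at 16.4, 15.8 and 18.5 CPM on cytosol-labelled and 11.5, 9.74 and 8.98 CPM on ER-labelled ribosomes, against 1.56, 1.96 and 1.93 CPM and 1.95, 1.77 and 2.09 CPM in cytosol and ER whole-cell RNA.

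Zscan4d, the copy best known from the 2-cell embryo, was at 12.3, 14.8 and 14.6 CPM in cytosol ribosome-bound and at 10.4, 8.74 and 8.89 CPM in ER ribosome-bound RNA. Whole-cell libraries held 2.05, 1.58 and 2.37 CPM for cytosol targeting and 1.61, 1.62 and 1.82 CPM for ER targeting. Again only the whole-cell groups overlapped. For Zscan4f the ribosome-bound levels were 10.8, 11.8 and 11.3 CPM in the cytosol group and 6.48, 7.27 and 8.02 CPM in the ER group. Its cytosol whole-cell libraries spread from 1.04 CPM in replicate 1 to 2.21 in replicate 2, with 1.58 in replicate 3, around the ER whole-cell levels of 1.87, 1.92 and 1.56 CPM.

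The pair that is identical in the printed stretch differed in level. Zscan4e was at 9.49, 10.9 and 11.6 CPM in cytosol ribosome-bound RNA and at 8.14, 7.71 and 8.25 CPM in ER ribosome-bound RNA, the smallest ratio between these groups among the copies. Its whole-cell levels were 1.12, 1.66 and 1.4 CPM (cytosol) and 1.78, 1.18 and 1.29 CPM (ER). Zscan4b had the fewest reads of the 6 copies, with 3.79, 3.64 and 4.44 CPM on cytosol-labelled and 2.15, 2.23 and 2.73 CPM on ER-labelled ribosomes. Its whole-cell levels were 0.642, 0.724 and 0.701 CPM (49 reads in all) in the cytosol libraries and 0.467, 0.344 and 0.456 CPM (30 reads) in the ER libraries. On these few reads, it was the one member whose whole-cell groups did not overlap.

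Tcstv3 followed the order of the Zscan4 copies at a much lower count. Its ribosome-bound levels were 0.842, 0.968 and 0.895 CPM with cytosol targeting (72 reads in all) and 0.581, 0.517 and 0.41 CPM with ER targeting (35 reads). In whole-cell RNA it was at 0, 0.255 and 0.263 CPM (12 reads) in the cytosol libraries and at 0.255, 0.148 and 0.038 CPM (10 reads) in the ER libraries. The ribosome-bound groups were apart and the whole-cell groups overlapped. Tcstv1 had 1 read in all, in ER ribosome-bound replicate 1, and no fold is given for it.

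The first comparison asks how ribosome-bound RNA differs from whole-cell RNA of the same targeting, as groups, without pairing of libraries. With cytosol targeting the Zscan4 sum was 7.79-fold higher in ribosome-bound than in whole-cell RNA (log2 2.96, SE 0.066). Zscan4a had the highest ratio, 9.31-fold (log2 3.22, SE 0.126), followed by Zscan4c at 8.35-fold, Zscan4e at 7.65-fold, Zscan4f at 7.02-fold and Zscan4d at 6.97-fold. Zscan4b was lowest among the copies at 5.72-fold (log2 2.52, SE 0.207), and Tcstv3 was at 5.21-fold (log2 2.38, SE 0.467). All 7 tested members were higher without overlap of the groups, as were 23.4% of all tested genes, and all 7 were over 4-fold higher, as were 0.715%. Nothing is read from these shares or the places below, since the members were chosen on such values. Tcstv3, with 0 to 6 reads per whole-cell library, passed the filter only through its ribosome-bound libraries, which favoured its rise in advance. Counted from the highest ratio among 16221 genes, Zscan4a stood at place 25, Zscan4c at 35, Zscan4e at 48, Zscan4f at 59, Zscan4d at 60, Zscan4b at 84 and Tcstv3 at 91.

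With ER targeting the sum was 5.24-fold higher in ribosome-bound than in whole-cell RNA (log2 2.39, SE 0.070). The copies lay close together: Zscan4e was 5.62-fold higher, Zscan4c 5.61-fold, Zscan4d 5.49-fold, Zscan4b 5.48-fold and Zscan4a 5.15-fold. Zscan4f stood lower at 4.09-fold (log2 2.03, SE 0.160), and Tcstv3 at 3.44-fold (log2 1.78, SE 0.556). Again 7 of 7 were higher without overlap, against 33.6% of all tested genes, and the same limit holds for Tcstv3. The 6 Zscan4 copies were over 4-fold higher, against 1.84%. Their places from the highest ratio ran from 77 for Zscan4e to 257 for Zscan4f, and Tcstv3 was at 603.

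**Figure D2:**
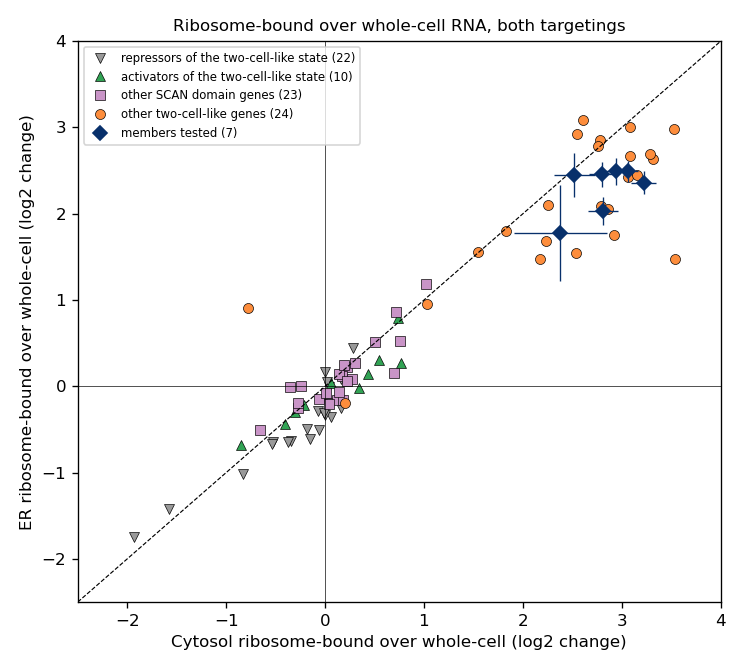
Log2 change of ribosome-bound over whole-cell RNA with cytosol targeting (x axis) and ER targeting (y axis) for 7 members (diamonds, with the SE as bars) and for the tested genes of 4 lists; the dashed line marks equal changes. The members lie at 2.38 to 3.22 on the x axis and 1.78 to 2.49 on the y axis, among most of the other 2-cell-like genes.

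The second comparison sets ribosomes labelled at the ER against those labelled in the cytosol. The Zscan4 sum was 1.57-fold lower on ER-labelled ribosomes (log2 -0.65, SE 0.052). Zscan4a was at a log2 change of -0.75 (SE 0.093), Zscan4c at -0.74 (SE 0.080), Zscan4b at -0.74 (SE 0.165), Zscan4f at -0.63 (SE 0.113), Zscan4d at -0.58 (SE 0.098) and Zscan4e at -0.41 (SE 0.106). Tcstv3 was at -0.83, with an SE of 0.373 from its few reads. In all 7 tested members the ER libraries were lower without overlap, against 27.3% of all tested genes. They include Tcstv3, which passed the filter through ribosome-bound libraries, with most reads in the cytosol group. When libraries were scaled on 56 genes of cytosolic proteins, the median of all genes shifted by 0.225 in this comparison and the members shifted with it, to -0.42 for the sum and between -0.19 (Zscan4e) and -0.61 (Tcstv3) for single genes. On that scale 7910 genes were higher and 711 lower, against 4715 and 3983 with the main scaling, so the direction of each member is relative to the genes chosen as the reference and was lower with both.

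Both ribosome-bound groups can be set against the whole-cell group of the same targeting, in a comparison that shares its libraries with those above. The ratio of ribosome-bound to whole-cell RNA was lower with ER than with cytosol targeting by 0.57 on the log2 scale for the Zscan4 sum (-0.57, SE 0.104). It differed by -0.85 (SE 0.211) for Zscan4a, -0.78 (SE 0.243) for Zscan4f and -0.57 (SE 0.179) for Zscan4c. For Zscan4e it differed by -0.45 (SE 0.242) and for Zscan4d by -0.34 (SE 0.219). Tcstv3 was at -0.60 (SE 0.824). Zscan4b was at -0.06 (SE 0.407), and at 0.17 under cytosolic scaling, where its direction flipped. Its whole-cell groups held only 49 (cytosol) and 30 (ER) reads.

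Whole-cell RNA of ER and cytosol targeting was the comparison in which the members were tested, since the comparison itself was not used in their choice. Its libraries did enter the ribosome-bound over whole-cell values on which the members were chosen. The p-values are thus not fully independent of the choice. None passed the threshold: the sum had a log2 change of -0.08 (SE 0.089, unadjusted p = 0.39 and adjusted p = 1 by the quasi-likelihood test of edgeR), from -0.16 for Zscan4c and -0.23 for Zscan4d to 0.11 for Zscan4a and 0.14 for Zscan4f. Zscan4b, whose groups did not overlap, was at -0.68 (SE 0.326, unadjusted p = 0.044, adjusted p = 1 by edgeR). Those Zscan4b groups held 49 (cytosol) and 30 (ER) reads in all. Groups did not overlap in this direction in 3.85% of all tested genes. No gene of 16221 was called by edgeR (0%) or by DESeq2, with 634 and 342 at an unadjusted p under 0.05. A p that misses the threshold does not show that levels were equal, and with 191 to 275 Zscan4 reads per library small differences were not detectable at this depth.

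How the reads fell on the 6 copies varied less than their total. Zscan4c took 30.1% ± 2.04 (SD, n = 3) of the Zscan4 reads in cytosol ribosome-bound RNA, 28.4% ± 1.65 in ER ribosome-bound RNA, 27.9% ± 2.42 in cytosol whole-cell RNA and 26.4% ± 2.73 in ER whole-cell RNA. Zscan4a took 20.8% ± 1.55, 19.5% ± 2.31, 17.4% ± 0.666 and 19.7% ± 2.19 in the same order. All groups overlapped for Zscan4c. For Zscan4a the cytosol whole-cell libraries (16.7% to 18.0%) lay below the cytosol ribosome-bound (19.1% to 22.1%) and ER whole-cell libraries (18.1% to 22.2%). Zscan4e took 15.2% to 15.8% on ER-labelled against 12.3% to 13.8% on cytosol-labelled ribosomes, the one copy whose share separated those groups. Zscan4b took 6.18% to 7.24% in cytosol whole-cell RNA and 3.66% to 5.30% in the other 3 groups. Its whole-cell shares rested on 49 (cytosol) and 30 (ER) reads. Shares of a fixed total are not independent of each other, and no test was made on them.

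**Figure D3:**
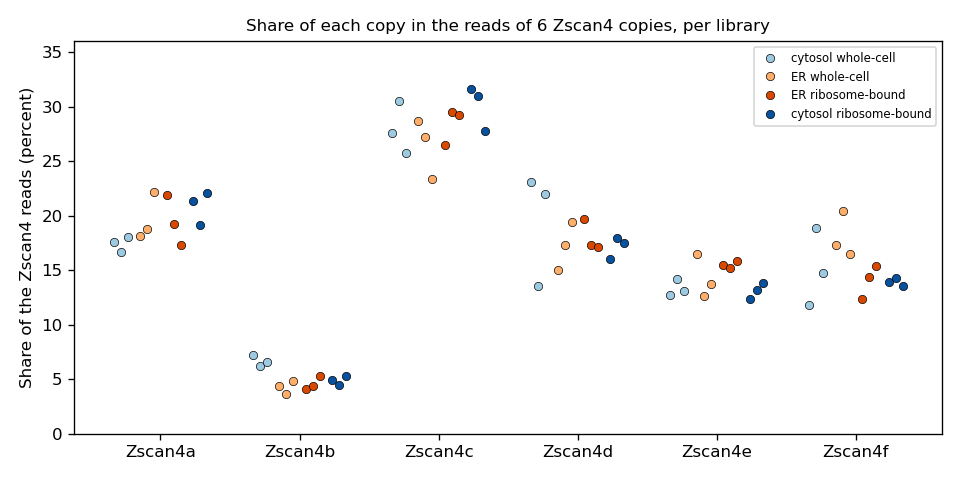
Share of each copy, in percent, in the reads counted on Zscan4a to Zscan4f in each of 12 libraries, 3 per group. Zscan4c has the highest share in each library (23.4% to 31.6%) and Zscan4b the lowest (3.66% to 7.24%).

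Further annotated Zscan4 copies outside the 8 genes had levels in the same order. Zscan4-ps2 was named for its likeness to the sum, and Zscan4-ps1 and Zscan4-ps3 after their values were seen, so no p-value is given. Zscan4-ps2 was at 10.9, 11.3 and 12.4 CPM in cytosol ribosome-bound RNA, 7.11, 8.43 and 8.02 CPM in ER ribosome-bound RNA and 1.06 to 1.74 CPM over the 6 whole-cell libraries, without overlap of the ribosome-bound groups with each other or with whole-cell RNA. Its log2 change on ER-labelled against cytosol-labelled ribosomes was -0.55 (SE 0.103), that of Zscan4-ps3 -0.81 (SE 0.111) and that of Zscan4-ps1 -1.12 (SE 0.181). Over whole-cell RNA the 3 had log2 changes of 2.03 to 2.49 (ER) and 2.62 to 2.99 (cytosol). They share sequence with the members, so their reads may be the same reads.

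Other genes of the 2-cell-like state form the closest setting. The list held 36 genes chosen with earlier results of these data known, so its direction is not independent evidence. The same holds for the other lists below and for the adjusted p-values printed for single listed genes. Some listed genes share a family, such as Usp17la to Usp17le, and whether reads tell these apart was not examined. Counts of listed genes may therefore not be counts of independent genes. Of the 36, 34 were found and 24 tested. With cytosol targeting 22 rose over whole-cell RNA and 1 fell (edgeR, adjusted p under 0.05), with a median log2 change of 2.77, against 20.8% and 33% of all tested genes and a median of -0.05. With ER targeting 23 rose and 0 fell, with a median of 2.09, against 32.5%, 30.6% and 0.01 over all genes. The filter asks for enough reads in as many libraries as a group holds, whichever group that is. A listed gene rare in whole-cell RNA was thus tested only if its ribosome-bound levels were high, which favoured a rise. Sp110 was such a gene, with 10 (cytosol) and 15 (ER) whole-cell reads against 67 and 44 ribosome-bound reads. Gm8300 and Gm5662, both related to the translation initiation factor Eif1a, were at 17.4, 19.8 and 19.6 CPM and at 16.2, 20.0 and 19.4 CPM in cytosol ribosome-bound RNA. Their ER ribosome-bound levels were 13.1, 12.6 and 12.9 CPM and 11.9, 15.4 and 14.5 CPM, against at most 2.42 CPM in whole-cell libraries of either gene. The cytosol and ER ribosome-bound groups did not overlap for either gene.

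On ER-labelled against cytosol-labelled ribosomes 14 of the 24 fell and 1 rose, with a median of -0.51, against 24.6%, 29.1% and 0.00 over all genes. Under cytosolic scaling 5 fell and 2 rose. Gm8300 fell by 0.56 (SE 0.079, edgeR adjusted p = 1.7e-07) and Usp17le, of a deubiquitinase family, fell by 0.75 (SE 0.102, edgeR adjusted p = 8e-08). Gm5662 was lower by 0.41 (-0.41, SE 0.095, edgeR adjusted p = 0.00039) and Gm2016, another Eif1a-like gene, by 0.38 (-0.38, SE 0.101, edgeR adjusted p = 0.0017), and both missed the threshold under cytosolic scaling. Pramel7, a PRAME family gene, was at log2 3.54 (SE 0.405) over whole-cell RNA with cytosol targeting, beside 3.53 (SE 0.239) for Gm2022. Pramel7 rested on 8 reads in cytosol whole-cell RNA and ran from 3.18 without cytosol whole-cell replicate 1 to 4.4 without replicate 3. BC147527 had 3 reads in ER whole-cell RNA, so no fold is given for it with ER targeting.

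AU018091 was the exception of the list and stood apart from the members in level and direction. It was at 108, 106 and 118 CPM in cytosol ribosome-bound RNA, 367, 375 and 357 CPM in ER ribosome-bound RNA, 189, 186 and 194 CPM in cytosol whole-cell RNA and 191, 206 and 187 CPM in ER whole-cell RNA. ER-labelled ribosomes were highest, cytosol-labelled ribosomes lowest, and neither overlapped whole-cell RNA. It rose by 1.73 on the log2 scale on ER-labelled over cytosol-labelled ribosomes (SE 0.041, edgeR adjusted p = 2.6e-29). Without it the summed list was at 121 to 136 CPM in cytosol ribosome-bound RNA, 92.1 to 96.5 CPM in ER ribosome-bound RNA and 17.7 to 20.6 CPM in whole-cell RNA.

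**Figure D4:**
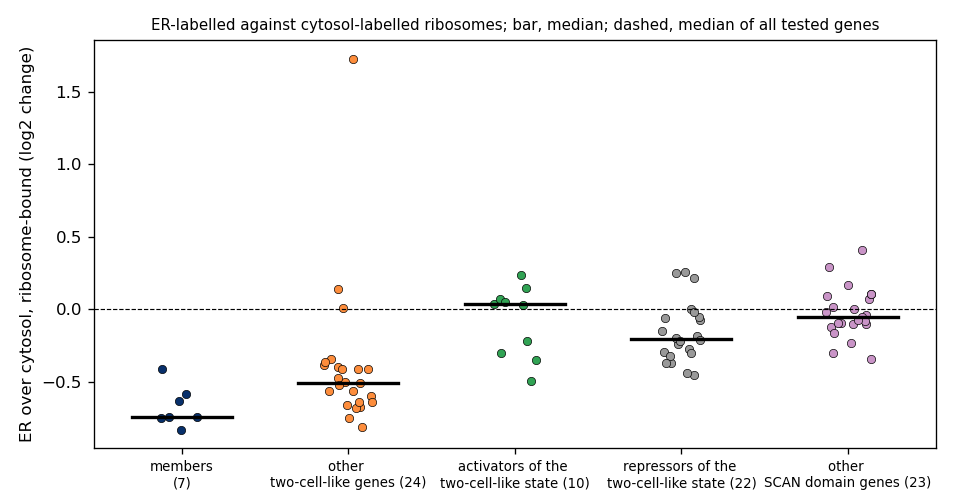
Log2 change of ER-labelled over cytosol-labelled ribosome-bound RNA for 7 members and the tested genes of 4 lists; each point is a gene, bars are medians and the dashed line is the median of all tested genes. Members lie between -0.83 and -0.41, and AU018091 is the point at 1.73 among the other 2-cell-like genes.

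Upstream activators of the state behaved less uniformly. Of 12 listed symbols 11 were found and 10 tested. The symbol not found was Dux, and whether Duxf3 stands for the same gene was not examined. Duxf3, of the Dux family, was too rare to test, with 19 reads in cytosol and 12 in ER ribosome-bound RNA, 2 in cytosol whole-cell RNA and 0 in ER whole-cell RNA. With cytosol targeting 5 of the 10 rose over whole-cell RNA and 4 fell (median 0.20), against 20.8% and 33% of all tested genes. With ER targeting 4 rose and 4 fell (median 0.01), or 6 and 2 under cytosolic scaling, against 32.5% and 30.6%. Dppa2, which with Dppa4 switches on Dux, was at 73.6, 80.7 and 73.4 CPM in cytosol ribosome-bound, 54.4, 53.0 and 54.6 CPM in ER ribosome-bound and 40.2 to 51.1 CPM in whole-cell RNA. It rose by 0.77 (SE 0.057, edgeR adjusted p = 5.1e-14) with cytosol targeting and by 0.27 (SE 0.059, edgeR adjusted p = 0.00014) with ER targeting. Dppa4 rose by 0.43 (SE 0.044, edgeR adjusted p = 1.9e-10) and 0.14 (SE 0.045, edgeR adjusted p = 0.0071). Tet2, a 5-methylcytosine dioxygenase, went the other way in both, at -0.85 (SE 0.056, edgeR adjusted p = 2e-15) and -0.68 (SE 0.056, edgeR adjusted p = 4.2e-13).

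On ER-labelled against cytosol-labelled ribosomes 4 of the 10 activators fell and 1 rose (median 0.04), against 24.6%, 29.1% and a median of 0.00 over all genes, or 2 and 6 under cytosolic scaling. Dppa2 fell by 0.49 (SE 0.056, edgeR adjusted p = 1.6e-09). Nelfa, a subunit of the negative elongation factor, fell by 0.35 (SE 0.039, edgeR adjusted p = 9.6e-10), and Dppa4 fell by 0.30 (SE 0.044, edgeR adjusted p = 3.1e-07) but missed the threshold under cytosolic scaling. Tet2 was the gene that rose, by 0.24 (SE 0.059, edgeR adjusted p = 0.00056), but it missed the threshold at 0.14 without cytosol ribosome-bound replicate 2 or without ER ribosome-bound replicate 1.

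With ER targeting most repressors of the state were lower in ribosome-bound than in whole-cell RNA, the other direction from the members. All 22 were tested. With ER targeting 17 fell and 3 rose over whole-cell RNA (median -0.35), against 30.6%, 32.5% and 0.01 over all genes, or 14 and 5 under cytosolic scaling. With cytosol targeting 9 fell and 3 rose (median -0.03), against 33%, 20.8% and -0.05 over all genes, or 11 and 3 under cytosolic scaling. Rif1, a regulator of replication timing and repair, was at 42.6, 41.9 and 43.3 CPM in cytosol ribosome-bound, 49.6, 51.4 and 51.3 CPM in ER ribosome-bound and 150 to 180 CPM in whole-cell RNA. It fell by 1.93 (SE 0.047, edgeR adjusted p = 1e-27) with cytosol and 1.75 (SE 0.047, edgeR adjusted p = 1.9e-27) with ER targeting. Dnmt1, the maintenance DNA methyltransferase, fell by 0.83 (SE 0.037, edgeR adjusted p = 3e-20) and 1.02 (SE 0.037, edgeR adjusted p = 2.3e-23).

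On ER-labelled against cytosol-labelled ribosomes 14 repressors fell and 3 rose (median -0.20), against 24.6% and 29.1% of all tested genes, but under cytosolic scaling 5 fell and 7 rose. The H3K9 methyltransferase Ehmt2 fell by 0.45 (SE 0.037, edgeR adjusted p = 4.8e-13) and the H3K4 demethylase Kdm1a by 0.37 (SE 0.035, edgeR adjusted p = 1.1e-11). Trim28, the corepressor of KRAB zinc finger proteins, fell by 0.24 (SE 0.032, edgeR adjusted p = 7.4e-08) but was at -0.01 under cytosolic scaling. Dnmt1 fell by 0.18 (SE 0.038, edgeR adjusted p = 0.00012) and was at 0.05, the other direction, under cytosolic scaling.

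Other genes with a SCAN domain share the domain of the Zscan4 proteins without their place in the 2-cell-like state. The 22 symbols correspond to 23 tested identifiers. Over whole-cell RNA 10 rose and 3 fell with cytosol targeting (median 0.17), against 20.8% and 33% of all tested genes. With ER targeting 7 rose and 3 fell (median 0.06), or 11 and 1 under cytosolic scaling, against 32.5% and 30.6%. On ER-labelled against cytosol-labelled ribosomes 3 fell and 2 rose (median -0.05), against 24.6% and 29.1%, or 0 and 9 under cytosolic scaling. Zkscan17, the list's gene with the highest mean level, was at 104 to 115 CPM on cytosol-labelled ribosomes, 111 to 117 CPM on ER-labelled ribosomes and 127 to 136 CPM in whole-cell RNA. Their log2 changes over whole-cell RNA reached 1.02 at most with cytosol and 1.19 with ER targeting, below each tested member.

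Genes whose level was most like the Zscan4 sum were ranked by Pearson correlation of log2 CPM over the 12 libraries, among 13902 genes with a mean of at least 1 CPM. The first 10 were Gm5039 (0.997), Gm21761 (0.996), Gm20767 (0.996), Gm18983 (0.995), Gm8300 (0.995), Usp17le (0.994), Zscan4-ps2 (0.993), Gm8332 (0.993), Zfp57 (0.992) and Cdca8 (0.992). Such values rest mainly on the differences between the 4 groups that all libraries share. They do not measure size: Gm21761 spanned 5.3 ± 0.366 CPM (SD, n = 3) in ER whole-cell to 52.5 ± 3.91 CPM in cytosol ribosome-bound RNA, whereas Zfp57, an imprinting factor, spanned 97.5 ± 4.93 to 151 ± 3.89 CPM, and Cdca8, a subunit of the chromosomal passenger complex, 208 ± 1.24 to 295 ± 3.59 CPM. After group means were subtracted, the first 10 were Rttn (0.935), Zfp57 (0.926), Clic6 (0.919), Ehd4 (0.910), Sdf4 (0.909), Ccnb1-ps (0.908), Abcb1a (0.902), Inafm1 (0.898), Nkd1 (0.892) and App (0.892). Zfp57 was in both lists, which use the same libraries, and no listed 2-cell-like gene was in the second. These are the highest of 13902 values over 12 libraries. Whether they exceed what unrelated genes would give was not tested, and nothing is read from the second list.

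The labelled cell type was checked on its markers. The 10 embryonic stem cell markers summed to 8900 to 9220 CPM in whole-cell, 11000 to 11200 CPM in cytosol ribosome-bound and 13400 to 14000 CPM in ER ribosome-bound RNA. The last of these sums includes Tdgf1, a membrane-anchored co-receptor of Nodal, at 4470 to 4980 CPM, against 1160 to 1420 CPM in the other groups. Without it the sums were 7580 to 7790, 9740 to 9880 and 8910 to 8970 CPM. Summed markers of other types over all libraries were 11.3 to 18.9 CPM for endoderm, 15.5 to 23.4 CPM for mesoderm, 16.9 to 19.3 CPM for neural cells and 109 to 139 CPM for trophoblast. In these lists Tpbpa (trophoblast), Lum (fibroblast) and Afp (endoderm) had at most 0.0447 CPM in any library, whereas Tfap2c (trophoblast) reached 125 CPM, Thy1 (fibroblast) 62.1 CPM, Eomes (mesoderm) 18.7 CPM, Nes (neural) 11.2 CPM and Gata4 (endoderm) 9.52 CPM. Fibroblast markers, most of which encode secreted or membrane proteins, were at 88.7 to 92.9 CPM in ER ribosome-bound RNA. In the other groups they were at 30.5 to 37.9 CPM. With ER targeting all 4 tested rose over whole-cell RNA, against 32.5% of all tested genes. The part of any of these in the members' values was not tested.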

How the data were processed

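Poly(A) RNA was sequenced from 12 libraries, 4 groups of 3. The authors deposited raw counts of reads per Ensembl gene. Per the submitters' processing notes, STAR 2.7.9a, HTSeq 0.11.2 and DESeq2 were used with GRCm39. Neither the annotation release nor the strand setting nor the treatment of multimapped reads is given in the sources used here. GENCODE M21 gave 52083 of 55416 identifiers a name. Its build differs, so it gave no coordinates. The 5 class totals (8.75% to 12.54% of reads per library) were left out.

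Genes were filtered with filterByExpr (16221 kept) and scaled with TMM factors. A model of the 4 groups over all libraries was fitted with edgeR 4.0.16 in R 4.3.3 (quasi-likelihood test, 2-sided, Benjamini-Hochberg adjustment at 0.05). Each SE was derived as the absolute log2 change divided by the square root of the test's F value, so it is approximate, most of all for changes near 0. For the sums, a second fit replaced the rows of the copies by a summed row for each family. Correlations used log2 CPM with 0.1 CPM added. The biological coefficient of variation was 3.6%, and replicate pairs differed by more than counting noise (chi-square per gene 2.11 to 9.16). The labels call the replicates biological but do not say whether they were separate cultures. A p-value thus measures only the spread between these libraries, part of which may be technical. Errors do not cover PCR amplification. Transcripts were aligned with mafft 7.526. The procedure was tested on simulated data.

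The members and lists were chosen with earlier results of these data known, so p-values printed for listed genes are not independent evidence. Genes named beside the members were, per list, among the 6 with the highest mean CPM or had the largest change, and the 10 most alike by each correlation. Alternatives were RLE factors, DESeq2 1.42.0, no filter, cytosolic scaling, mitochondrial genes left out, only the groups compared, a replicate block and leaving out each library.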

Additional observations from a re-analysis of the deposited data

Results flagged for a closer look

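For 13 of the genes named beside the members, the ratio of ribosome-bound to whole-cell RNA differed between ER and cytosol targeting in the test of that difference (log2, ER minus cytosol, edgeR with Benjamini-Hochberg adjustment over 16221 genes, adjusted p between 3.7e-24 for AU018091 and 0.025 for Rif1). In that test 4023 of all 16221 genes were called higher and 3010 lower, so nothing is read from the count of 13. Under cytosolic scaling 6274 were higher and 438 lower. Among 2-cell-like genes AU018091 was at 1.69, Pramel7 at -2.07, Usp17le at -0.80, Gm5662 at -0.69 and Gm8300 at -0.60. Pramel7 rested on 8 reads in cytosol whole-cell RNA and ran from -1.71 without cytosol whole-cell replicate 1 to -2.93 without replicate 3. Under cytosolic scaling Gm5662 and Gm8300 missed the threshold, at -0.46 and -0.37. Among activators Dppa2 was at -0.50, Nelfa at -0.36 and Dppa4 at -0.29. Nelfa and Dppa4 missed the threshold under cytosolic scaling, at -0.13 and -0.06. Among repressors Ehmt2 was at -0.46, Kdm1a at -0.41, Trim28 at -0.25, Dnmt1 at -0.19 and Rif1 at 0.18. Trim28 missed the threshold under cytosolic scaling (-0.02), Dnmt1 turned to 0.04, and Rif1 missed it with RLE factors and DESeq2 (0.14), with no filter (0.12), without mitochondrial genes (0.13) and in 8 of 12 fits that left out 1 library (0.09 to 0.16, among them the cytosol whole-cell replicates 2 and 3 and each ER ribosome-bound replicate). Without cytosol whole-cell replicate 1, Gm5662 missed the threshold at -0.54. The members are given in the results as a description.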

How the results depend on the processing

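Over all alternatives the members kept their direction in both ribosome-bound over whole-cell comparisons and in ER against cytosol ribosome-bound RNA. The Zscan4 sum in ER against cytosol ribosome-bound RNA was -0.72 with no filter, -0.71 without mitochondrial genes and -0.42 under cytosolic scaling, and the Tcstv sum was -0.57 under cytosolic scaling. Under that scaling the Zscan4 sum was 2.58 for ER ribosome-bound over whole-cell RNA and -0.34 for the difference of enrichments. Dnmt1 turned to 0.05 in ER against cytosol ribosome-bound RNA and to 0.04 in the difference. With no filter 7 genes were called between whole-cell groups. The cause was not tested.

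Leaving out each library gave a Zscan4 sum of -0.72 to -0.65 in ER against cytosol ribosome-bound RNA, 2.35 to 2.46 and 2.91 to 3.1 for ER and cytosol ribosome-bound over whole-cell RNA, -0.72 to -0.51 for the difference and -0.19 to 0 between whole-cell groups. The Tcstv sum ran from -1 to -0.72, 1.32 to 2.52, 1.83 to 2.86, -1.07 to 0.14 and -0.93 to 0.27. Its whole-cell direction turned without cytosol whole-cell replicate 2 (0.16) or 3 (0.19) or ER whole-cell replicate 3 (0.27), and its difference without ER whole-cell replicate 1 (0.14). Between whole-cell groups Zscan4e ran from -0.16 to 0.17, Zscan4f from -0.11 to 0.43 and Tcstv3 from -0.93 to 0.26. Calls numbered 0 to 2 between whole-cell groups, 2 without cytosol whole-cell replicate 3.

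With the replicate number as a block the Zscan4 sum was -0.65 in ER against cytosol ribosome-bound RNA, and 8637 genes were called there. Calls on members and sums were compared only between whole-cell groups, where none was called with or without the block. Same-numbered ribosome-bound and whole-cell libraries correlated at -0.008 to 0.128 (6 pairs) after group means were removed. The labels do not say whether a shared number marks a shared lysate, and these correlations do not settle it.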
